A study of Mus musculus with 24 samples.

Results

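The Wnt/β-catenin pathway was examined in tumor-associated macrophages through 10 genes chosen by name: the co-receptor Lrp6, the destruction-complex genes Apc, Axin1, Axin2 and Gsk3b, the effector Ctnnb1, the transcription factors Tcf7l2 and Lef1, and the target genes Myc and Ccnd1. All 10 were found among the 55487 mouse Ensembl gene IDs of the count table. The macrophages were host cells from orthotopic MC38 tumors, MC38 being a mouse colon carcinoma line grown here in C57BL/6J mice, and were sorted from digested tumors as cells positive for CD45, CD11b and F4/80. The tumors were APC-KO (tumor 1 and tumor 2) or APC-WT (tumor 1 and tumor 2), and 6 libraries were made from each, giving 24 libraries of 4 tumors. The genotype label belongs to the tumor, so the Apc level of the macrophages does not check it. The mouse behind each tumor, the age and sex of the hosts and whether the APC-KO line is 1 clone were not stated in the labels, and the labels call the 6 libraries of a tumor replicates of 1 sample.

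In the resting pathway, a cytoplasmic complex built on Axin and APC holds β-catenin while the kinases CK1 and GSK3 phosphorylate it, and the marked protein is degraded. When a Wnt ligand binds Frizzled and LRP5 or LRP6, the complex is taken up by the receptor, β-catenin accumulates and enters the nucleus, and there it joins TCF and LEF factors on target genes such as Axin2, Lef1, Myc and Ccnd1. Loss of APC is a frequent early lesion of colorectal carcinoma. Most control of β-catenin is exerted on the protein, which an RNA count does not measure.

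Tcf7l2 and Lef1 encode factors of the same family that bind the same DNA element. Their values lay far apart in the APC-WT libraries and less so in the APC-KO libraries. The most similar stretch of 90 bases without gaps between their longest coding sequences lies in the HMG box, the DNA-binding domain. It is shown to let the reads of these genes be told apart. It covers coding bases 982 to 1071 of 1821 in Tcf7l2 (chromosome 19, plus strand) and 892 to 981 of 1194 in Lef1 (chromosome 3, plus strand), read from GENCODE M21 transcripts on GRCm38. Capitals mark the bases that differ.
Tcf7l2: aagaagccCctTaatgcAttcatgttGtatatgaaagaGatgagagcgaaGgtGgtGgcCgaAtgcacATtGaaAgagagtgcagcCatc
Lef1: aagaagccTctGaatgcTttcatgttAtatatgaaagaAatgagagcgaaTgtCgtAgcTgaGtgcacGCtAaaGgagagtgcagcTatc
The stretches were identical at 75 bases and differed at 15, and the longest identical run was 11 bases. None of the 10 genes shared a stretch of 50 bases with another of the 10. Windows of 50 bases that recur in a transcript of some other annotated gene, on either strand, made up 21.6% of Ccnd1, 13.7% of Lef1 and 12.3% of Ctnnb1, against 2.02% or less of the other 7 genes.

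The promoters of Axin2 and Lef1 are shown because both genes are read as reporters of TCF/LEF activity, and that of Gsk3b because it is a pathway component with a match to the motif. The sequences are the 250 bases before a RefSeq transcription start on GRCm38.p6, plus strand, at chr11:108920099-108920348 for Axin2, chr3:131110047-131110296 for the most upstream start of Lef1 and chr16:38088751-38089000 for Gsk3b. Capitals mark matches to CTTTGA, the core of the TCF/LEF element, or to its reverse complement TCAAAG.
Axin2: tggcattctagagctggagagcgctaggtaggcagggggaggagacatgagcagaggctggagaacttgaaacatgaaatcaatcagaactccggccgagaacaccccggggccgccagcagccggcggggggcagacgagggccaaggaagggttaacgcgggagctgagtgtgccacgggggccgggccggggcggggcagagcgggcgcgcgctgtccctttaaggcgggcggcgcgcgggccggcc
Lef1: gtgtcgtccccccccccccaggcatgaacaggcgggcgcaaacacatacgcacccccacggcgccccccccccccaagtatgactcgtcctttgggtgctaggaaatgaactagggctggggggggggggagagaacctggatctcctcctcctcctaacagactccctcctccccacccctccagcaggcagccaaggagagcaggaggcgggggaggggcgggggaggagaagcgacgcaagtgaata
Gsk3b: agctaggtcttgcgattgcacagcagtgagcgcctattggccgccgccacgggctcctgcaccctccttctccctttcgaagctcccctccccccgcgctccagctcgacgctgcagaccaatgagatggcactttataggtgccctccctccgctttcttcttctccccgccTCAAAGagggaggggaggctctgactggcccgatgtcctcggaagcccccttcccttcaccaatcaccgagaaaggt
The motif was found in Gsk3b, starting 77 bases before the start site on the reverse strand, and not in these windows of Axin2 and Lef1. Over the table, 4544 of 32851 promoter windows of this length (13.8%) held it on either strand. Promoters were on hand for 5 of the genes at 10 starts, also Ctnnb1 and Tcf7l2, and 2 of the 10 held a match, the other being an internal start of Lef1. A match in such a window is a description of the sequence only.

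The libraries differed in depth and in how much of each came from expressed genes. Libraries of APC-KO tumor 1 held 8895722 to 19328572 counts and those of APC-KO tumor 2 held 13464061 to 17196820. Libraries of APC-WT tumor 1 held 74972634 to 93568353 counts and those of APC-WT tumor 2 held 28018638 to 46837543. A set of 12 loci that share 15-base words with the satellite-like gene Gm10800 took 37.9% and 38.5% of the counts of the APC-KO tumors, against 1.32% and 7.08% of the counts of the APC-WT tumors. Olfactory and vomeronasal receptor genes (1407 Olfr and 567 Vmn genes) were taken as a background set, and expression of single ones in macrophages was not examined. As a set, these receptor genes took 0.808% and 0.823% in APC-KO tumors, against 0.0345% and 0.232% in APC-WT tumors. Their pooled counts per kb of exon served as the background of each tumor. Extended over all genes, that background amounts to 17.6% and 17.9% of the counts in APC-KO tumors, and to 0.751% and 5.05% in APC-WT tumors. Genotype and these differences between libraries cannot be told apart. All 12 macrophage markers stood above background in the 4 tumors.

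Of the 10 genes, 5 stood above background in all 4 tumors, namely Gsk3b, Ctnnb1, Tcf7l2, Myc and Ccnd1. Above background means that the counts per kb of exon exceeded the 99th percentile of the receptor genes in that tumor, which was 3.41 and 3.66 times the pooled background in APC-KO tumors and 3.94 and 2.45 times in APC-WT tumors. By the same rule 23.3% of 20506 protein-coding genes were above background in all 4 tumors. Apc and Lrp6 were above it in both APC-WT tumors and in neither APC-KO tumor, a pattern that 30.5% of protein-coding genes shared in the sense of being above in both APC-WT tumors and not in both APC-KO tumors. Axin1 cleared the limit in every tumor except APC-KO tumor 2, and in APC-KO tumor 1 it did so only with library 5 included (3.53 times background with it, 3.16 without it). Axin2 and Lef1, the most direct reporters of TCF/LEF activity among the 10, were above background in no tumor, as were 38.1% of protein-coding genes. That call depended on the rule. In APC-WT tumor 1, 9 of the genes, all but Lef1, passed against the 95th percentile of the receptor genes. With the longest transcript in place of all exons Lef1 passed in all 4 tumors. All 10 genes passed in APC-WT tumor 1 against near-silent coding genes. That set was chosen as genes at no more than 2 times background in that same tumor. Axin2 and Lef1, at 2.78 and 2.33 times there, had to pass, so that outcome says nothing about them. Against Vmn genes alone only Ctnnb1, Myc and Ccnd1 passed in all 4 tumors.

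**Figure D1:**
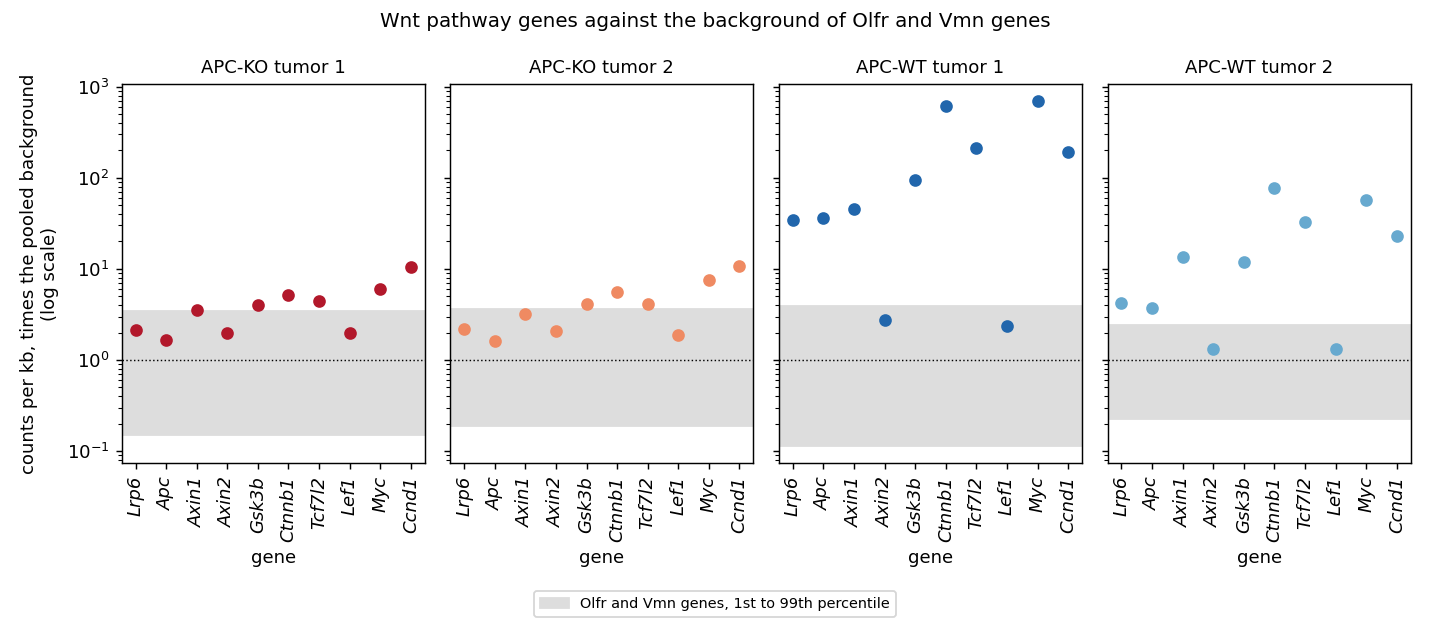
Counts per kb of exon of each gene divided by the pooled background of Olfr and Vmn genes, on a log axis, in APC-KO tumors (left) and APC-WT tumors (right). The grey band spans the 1st to 99th percentile of the receptor genes; Axin2 and Lef1 lie within it in every tumor, and Ctnnb1 reaches 608 times background in APC-WT tumor 1 against 5.19 times in APC-KO tumor 1.

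Levels are given below as scaled CPM, a CPM taken on the TMM-scaled total of 3938 genes called expressed. A gene was called expressed where its mean CPM over tumors was no less than 10 and exceeded the background expected from its length by 10 times or more. Values of a tumor are the lowest, median and highest of its 6 libraries. A lower level in sorted bulk cells can come from fewer cells that express the gene or from less RNA per cell, and the libraries do not tell these apart.

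Lrp6 (chr6:134446476-134566965, minus strand), the co-receptor that docks Axin once a Wnt ligand has bound, had 97.3, 117 and 118 scaled CPM in APC-KO tumor 1 and 112, 117 and 129 in APC-KO tumor 2, against 22.0, 35.1 and 56.7 in APC-WT tumor 1 and 23.4, 31.4 and 37.3 in APC-WT tumor 2. All 12 APC-KO libraries were above all 12 APC-WT libraries. Among the expressed genes 28.1% were separated in this way, but that set leaves out Lrp6, Apc, Axin2, Gsk3b and Lef1. The share over all genes was not computed. With the same scaling, 30157 of 53705 genes were called higher in APC-KO tumors (adjusted p under 0.05, edgeR on tumor sums), with a median log2 change of 3.57. The expected background was 53.7 and 54.2 scaled CPM in APC-KO tumors, against 1.05 and 7.48 in APC-WT tumors, so that it equalled 45.2% to 47.3% of the APC-KO levels. Measured against background the order turned round, with 2.12 and 2.21 times in APC-KO tumors and 34.7 and 4.24 times in APC-WT tumors. Within APC-WT tumor 1 the highest library was 2.51 times the lowest, both raised by 1 scaled CPM; 2.92% of expressed genes were spread as widely there.

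Apc (chr18:34220924-34322552, plus strand), the scaffold whose loss defines the APC-KO tumors, was measured here in host cells and had 88.3, 111 and 115 scaled CPM in APC-KO tumor 1 and 96.0, 103 and 113 in APC-KO tumor 2. In the APC-WT tumors it had 41.1, 45.6 and 46.7 in tumor 1 and 30.3, 32.3 and 37.0 in tumor 2. The APC-KO libraries were again all higher, a separation whose share over all genes was not computed. Again they stood closer to background, at 1.68 and 1.61 times, against 36.2 and 3.72 times in APC-WT tumors. Background equalled 59.7% to 62.1% of the APC-KO level of Apc, the highest share among the 10 genes.

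Axin1 (chr17:26138688-26195811, plus strand), the scaffold present in limiting amount in the destruction complex, had 44.0, 47.0 and 67.1 scaled CPM in APC-KO tumor 1 and 43.6, 45.9 and 54.7 in APC-KO tumor 2, against 6.93, 9.03 and 34.1 in APC-WT tumor 1 and 8.67, 14.8 and 51.5 in APC-WT tumor 2. The ranges of the genotypes overlapped through libraries 2 and 3 of APC-WT tumor 2. Library 1 of APC-WT tumor 1 had 34.1 while the other 5 averaged 8.95 ± 2.07 (SD), and in APC-WT tumor 2 libraries 1, 2 and 3 had 19.3, 51.5 and 49.0 while the other 3 averaged 9.51 ± 0.798. Without those libraries Axin1 was still at 29.8 and 4.48 times background in APC-WT tumors. In APC-WT tumor 1 the highest library was 4.42 times the lowest, both raised by 1 scaled CPM, and 1.40% of expressed genes varied as much. In APC-WT tumor 2 libraries 1 to 3 differed from 4 to 6 over all expressed genes (chi-square per degree of freedom 66.2 to 177). Within these sets it was 12.4 to 36.0. Lrp6 (34.8 to 37.3 against 23.4 to 28.0 scaled CPM) and Ctnnb1 (207 to 210 against 237 to 256) were split likewise. So, narrowly, was Tcf7l2, and the remaining genes overlapped. The cause was not tested.

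Axin2 (chr11:108920349-108950783, plus strand), a negative regulator that β-catenin and TCF themselves switch on, had 34.7, 45.7 and 50.2 scaled CPM in APC-KO tumor 1 and 38.3, 46.0 and 54.6 in APC-KO tumor 2. In APC-WT tumor 1 it had 0.940, 1.17 and 1.43, and in APC-WT tumor 2 it had 3.31, 3.90 and 5.15. All APC-KO libraries were higher, a separation whose share over all genes was not computed. The highest and lowest tumor differed by 39.0-fold, while the background per kb of the tumors differed by 51.8-fold. Axin2 followed it, at 2.00 and 2.10 times background in APC-KO tumors and 2.78 and 1.31 times in APC-WT tumors, all within the range of the receptor genes.

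Gsk3b (chr16:38089001-38246084, plus strand), the kinase that marks β-catenin for degradation, was the destruction-complex gene of the 10 that stood above background everywhere. It had 146, 152 and 165 scaled CPM in APC-KO tumor 1 and 143, 159.7 and 177 in APC-KO tumor 2, against 66.6, 71.7 and 77.8 in APC-WT tumor 1 and 58.4, 63.3 and 68.3 in APC-WT tumor 2. All APC-KO libraries were higher, with 24.2% to 24.9% of their level equal to the background. The share of all genes separated in this way was not computed, and with this scaling 30157 of 53705 genes were called higher in APC-KO tumors. Gsk3b stood at 4.01 and 4.13 times background in APC-KO tumors and at 94.8 and 11.8 times in APC-WT tumors, which left it short of the 10-fold limit for the genotype test. Under other limits it was tested, with a log2 change of 1.00 (adjusted p = 0.0019, edgeR) at 5 times background and of -0.82 (0.069) with no limit; Axin1 was at 1.31 (0.029) and 0.65 (0.16) in these settings. The direction of Gsk3b also depended on the background taken off: with the pooled value taken off, APC-KO tumors kept 116 and 122 scaled CPM against 70.6 and 58.2 in APC-WT tumors, and with the 99th percentile of the receptor genes taken off, 23.3 and 18.2 against 68.4 and 50.5.

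Ctnnb1 (chr9:120929216-120960507, plus strand) encodes β-catenin. It had 94.1, 104 and 118 scaled CPM in APC-KO tumor 1 and 91.4, 111 and 141 in APC-KO tumor 2, against 233, 243 and 254 in APC-WT tumor 1 and 207, 224 and 256 in APC-WT tumor 2. Ctnnb1 was the only one of the 10 genes with all 12 APC-KO libraries below all 12 APC-WT libraries, a position held by 28.4% of the expressed genes; 28.1% had all APC-KO libraries higher. It stood at 5.19 and 5.57 times background in APC-KO tumors and at 608 and 78.2 times in APC-WT tumors. Ulk4, a gene on the opposite strand that overlaps the end of Ctnnb1, was within the background range in every tumor, at 1.64 and 1.73 times in APC-KO tumors and 3.16 and 1.14 times in APC-WT tumors.

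Tcf7l2 (chr19:55741820-55933654, plus strand), the TCF factor through which β-catenin acts in gut epithelium and many other tissues, had 133, 151 and 185 scaled CPM in APC-KO tumor 1 and 109, 147 and 161 in APC-KO tumor 2, against 134, 144 and 148 in APC-WT tumor 1 and 151, 159 and 165 in APC-WT tumor 2. The libraries of the genotypes overlapped, and of the 10 genes Tcf7l2 varied least between tumors, by 1.10-fold between the highest and the lowest. Relative to background it stood at 4.48 and 4.15 times in APC-KO tumors, against 211 and 32.5 times in APC-WT tumors.

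Lef1 (chr3:131110471-131224356, plus strand), the relative of Tcf7l2 that is best known from lymphocytes, had 57.5, 67.5 and 81.8 scaled CPM in APC-KO tumor 1 and 51.6, 64.9 and 78.2 in APC-KO tumor 2. In APC-WT tumor 1 it had 1.23, 1.59 and 1.90, and in APC-WT tumor 2 it had 3.93, 6.33 and 7.61. These levels followed the background as those of Axin2 did, at 1.97 and 1.87 times in APC-KO tumors and 2.33 and 1.31 times in APC-WT tumors.

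Myc (chr15:61985391-61990374, plus strand), a growth regulator and Wnt target in gut epithelium, had 61.8, 62.8 and 69.6 scaled CPM in APC-KO tumor 1 and 71.9, 79.4 and 92.8 in APC-KO tumor 2, against 140.3, 146 and 156 in APC-WT tumor 1 and 83.3, 85.4 and 88.7 in APC-WT tumor 2. APC-WT tumor 1 lay above all other libraries, and APC-KO tumor 2 overlapped APC-WT tumor 2. Myc stood at 6.04 and 7.57 times background in APC-KO tumors and at 700.0 and 57.2 times in APC-WT tumors.

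Ccnd1 (chr7:144929931-144939925, minus strand), which encodes cyclin D1, the partner of CDK4 and CDK6 at the entry to the cell cycle, was the only one of the 4 tested genes at over 10 times background in each tumor. It had 135, 200.4 and 223 scaled CPM in APC-KO tumor 1 and 181, 201 and 217 in APC-KO tumor 2, against 66.1, 69.4 and 74.9 in APC-WT tumor 1 and 55.6, 58.1 and 64.8 in APC-WT tumor 2. All 12 APC-KO libraries were above all 12 APC-WT libraries, as for 28.1% of the expressed genes. Background equalled 9.28% to 9.43% of the APC-KO level of Ccnd1, the lowest share among the 10. With the 99th percentile of the receptor genes taken off, 133 and 133 scaled CPM were left in APC-KO tumors, against 68.1 and 53.0 in APC-WT tumors.

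The 3′ end of Ccnd1 overlaps LTO1 on the opposite strand over 1771 bases (chr7:144929931-144931701), and whether strand was used in counting is not given in the sources used here, so their reads cannot be told apart. LTO1 averaged 91.4 ± 25.9 and 87.0 ± 11.9 scaled CPM in APC-KO tumors, against 14.8 ± 1.38 and 19.1 ± 1.97 in APC-WT tumors (SD, n = 6 libraries each). Relative to background LTO1 stood at 3.22 and 3.12 times in APC-KO tumors, within the range of the receptor genes. In APC-WT tumors it stood at 27.3 and 4.90 times, above background in both. Library 2 of APC-KO tumor 1 had the lowest Ccnd1 level, 135 against 198 to 223 in the other 5, and the highest LTO1 level, 143 against 73.0 to 87.9. The sum of both genes in that library was 278, within the 272 to 307 of the tumor. Summed over both genes the 12 APC-KO libraries had 261 to 307 scaled CPM, against 73.6 to 89.3 in the 12 APC-WT libraries. No background was taken off these sums, and the LTO1 part of the APC-KO sums lay within the background range.

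**Figure D2:**
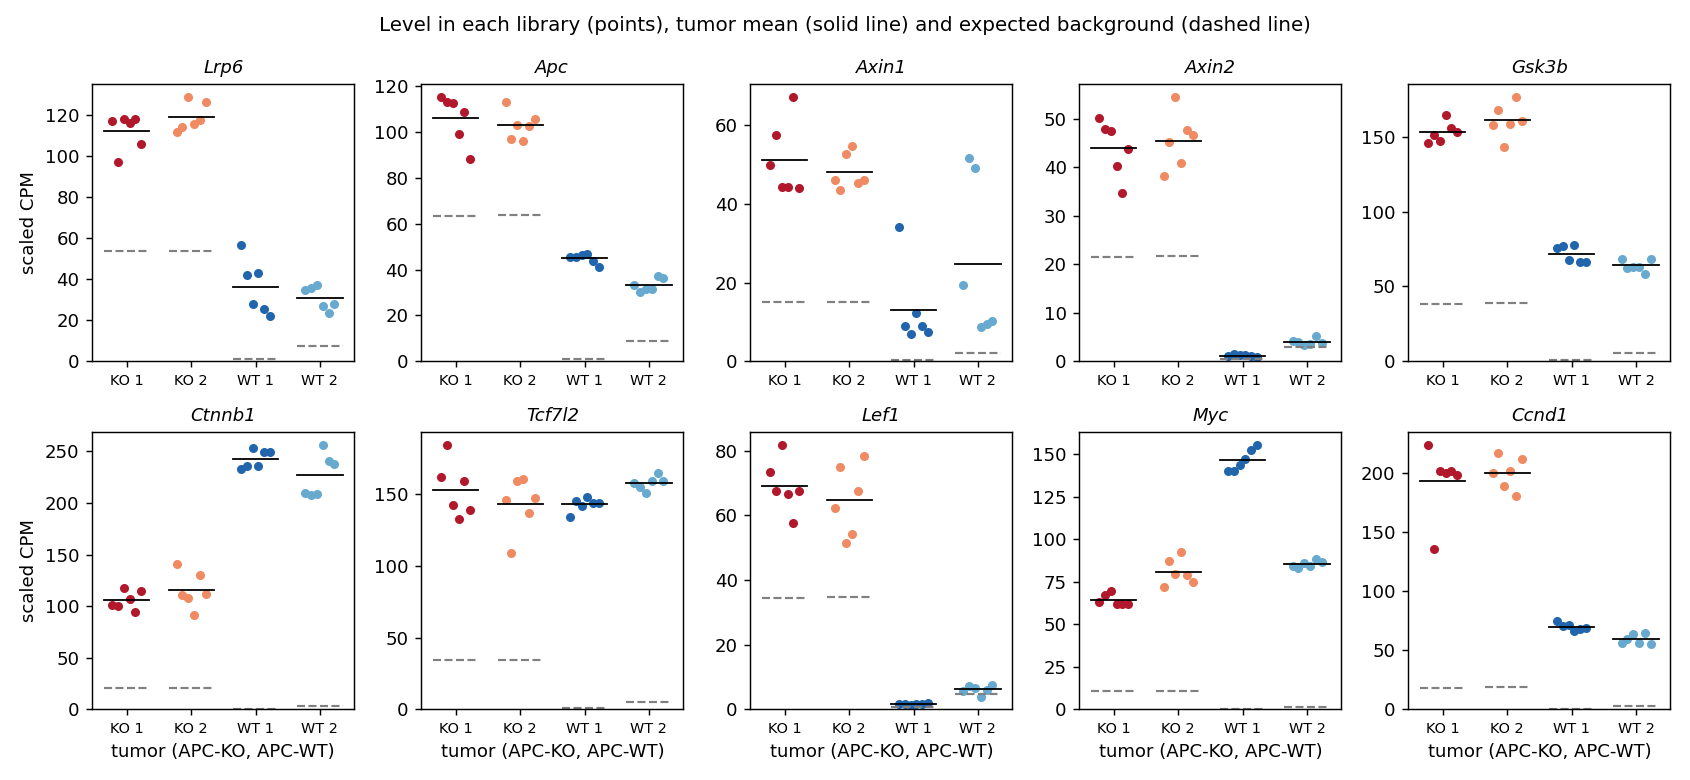
Scaled CPM of each gene in every library (points, 6 per tumor), with the tumor mean (solid line) and the mean expected background (dashed line), APC-KO tumors left of APC-WT tumors. Ctnnb1 is lower and Ccnd1 higher in APC-KO libraries without overlap, and a few APC-WT libraries of Axin1 stand above the rest. Axin2 and Lef1 lie at 1.31 to 2.78 times background in APC-WT tumors and at 1.87 to 2.10 times in APC-KO tumors.

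The genotype was tested on tumor sums, 2 APC-KO tumors against 2 APC-WT tumors, over the 3938 expressed genes with edgeR's quasi-likelihood test, Benjamini-Hochberg adjustment and an offset per tumor for transcript length. In that fit 49.2% of genes passed an adjusted p of 0.05, 24.8% as higher and 24.4% as lower in APC-KO tumors. Of the 10 pathway genes 4 were expressed enough to enter, and the other 6 (Lrp6, Apc, Axin1, Axin2, Gsk3b and Lef1) were not tested there. The limit of 10 times background was set on the mean over tumors: Ccnd1 exceeded it in each tumor, whereas Ctnnb1, Tcf7l2 and Myc did so in the APC-WT tumors only and entered through them. Ccnd1 rose, by 2.07 ± 0.12 on the log2 scale (SE, adjusted p = 0.0026). Tcf7l2 rose by 0.45 ± 0.11 (adjusted p = 0.027), and Ctnnb1 fell by 0.64 ± 0.11 (adjusted p = 0.012), a direction that its entry through the APC-WT tumors favours. Myc had a log2 change of -0.58 ± 0.29 and did not pass (adjusted p = 0.16). Myc did pass with 5 times the background as limit (-0.95, adjusted p = 0.046) and with no limit (-1.13, 0.048). It also passed with tumor number as a block where the numbers were crossed between genotypes (-0.53, adjusted p = 0.040, edgeR). As entry depends on the level, and with 3 of 4 called among genes of which 49.2% were called, the count says nothing particular about the pathway.

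The call on Ccnd1 alone held under the alternatives that tested it, though its log2 change was 0.94 (adjusted p = 0.020) where no limit relative to background was set. In that setting Tcf7l2 was at -0.66 (adjusted p = 0.022) and Ctnnb1 at -1.74 (0.0074). Without the length offset 63.4% of genes passed (32.7% higher, 30.7% lower), and the log2 changes were 1.62 for Ccnd1, 0.0020 for Tcf7l2 (adjusted p = 0.99) and -1.07 for Ctnnb1. With the pooled background subtracted they were 1.97, 0.09 and -0.93, and with the 99th percentile subtracted 1.59, -2.06 and -2.16, so that the direction of Tcf7l2 turned. Leaving out an APC-KO tumor ended the calls on Tcf7l2 (adjusted p = 0.15 without tumor 1 and 0.11 without tumor 2) and on Ctnnb1 (0.094 and 0.068), and leaving out APC-WT tumor 1 ended that on Tcf7l2 (0.071). With tumor number as a block, Ctnnb1 (adjusted p = 0.055) and Tcf7l2 (0.095) did not pass. Myc rested on APC-WT tumor 1: its log2 change was -0.91 without APC-WT tumor 2 (adjusted p = 0.015) and -0.13 without APC-WT tumor 1 (adjusted p = 0.57).

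**Figure D3:**
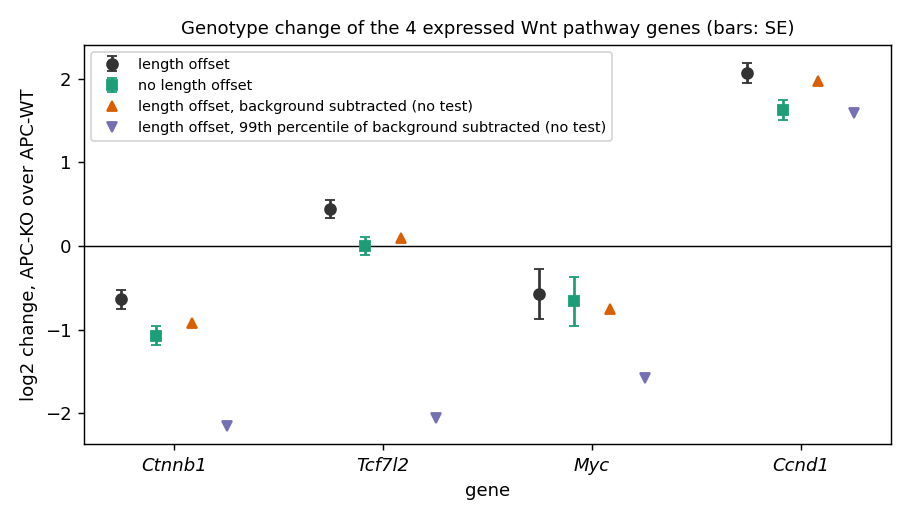
Log2 change, APC-KO over APC-WT, of the 4 expressed pathway genes with the length offset (circles, SE bars), without it (squares, SE bars), and with the pooled background (upward triangles) or the 99th percentile of the background (downward triangles) subtracted, which have no test. Ccnd1 lies between 1.59 and 2.07 in the 4 versions, and Tcf7l2 lies on both sides of 0.

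A fit over all 53705 genes with TMM scaling gave another set of signs. Expressed genes had a median log2 change of -4.01 in it and the receptor genes one of 0.41, with their 5th and 95th percentiles at -0.41 and 1.07. Ctnnb1 stood at -5.12 ± 1.39, Myc at -4.88 ± 1.36, Tcf7l2 at -3.97 ± 1.18, Gsk3b at -2.84 ± 1.05, Apc at -2.71 ± 1.03, Ccnd1 at -2.46 ± 1.05, Axin1 at -2.40 ± 0.67 and Lrp6 at -2.29 ± 0.96 (SE). Lef1 at 0.67 ± 0.39 and Axin2 at 0.64 ± 0.33 lay among the receptor genes. No gene of the table passed in edgeR's quasi-likelihood test (0% called, 18647 genes at an unadjusted p under 0.05), with adjusted p from 0.097 to 0.27 for the 10 genes, while DESeq2 on the same sums called 11470, among them all of the 10 except Lef1 and Axin2. Ccnd1, Lrp6, Apc, Tcf7l2, Gsk3b and Axin1 turned positive when the same fit was scaled to the expressed genes.

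Tumors of the same genotype were compared over their libraries, which measures only the spread between libraries of a tumor. Libraries of the APC-WT tumors fell into unlike sets, which this comparison treated as exchangeable. APC-KO tumor 2 and APC-KO tumor 1 were close: 2.49% of 45451 genes passed (1.2% higher and 1.29% lower in tumor 2), and Myc was the only one of the 10, with 81.0 ± 7.77 scaled CPM in APC-KO tumor 2 and 64.4 ± 3.32 in APC-KO tumor 1 (SD, n = 6 each; log2 change 0.33, adjusted p = 8.1e-04, edgeR). Between the APC-WT tumors 83.3% passed, 78.8% as higher and 4.54% as lower in tumor 2, the tumor with more background. With TMM over all genes 21056 were higher and 12396 lower in tumor 2, and with DESeq2 13084 and 14352. Axin2 and Lef1 were among those called higher with scaling to the expressed genes, with log2 changes of 1.77 and 1.97, against a median of 2.88 for the receptor genes; with DESeq2 they did not pass (0.01, adjusted p = 0.94, and 0.23, adjusted p = 0.17). Myc fell by 0.78, Apc by 0.43, Ccnd1 by 0.23 and Gsk3b by 0.17 in APC-WT tumor 2 relative to APC-WT tumor 1, while Axin1 rose by 0.92. The call on Axin1 was lost without library 2 (adjusted p = 0.29) or library 3 (0.29) and with library number as a block (0.052), and that on Gsk3b without library 2 (0.066) or library 4 (0.060). Ctnnb1, Lrp6 and Tcf7l2 did not pass between the APC-WT tumors, though Tcf7l2 did without library 2 (adjusted p = 0.028). With TMM over all genes all 3 were called lower in APC-WT tumor 2 (adjusted p = 6.1e-15, 4.1e-09 and 7.8e-14), Ctnnb1 at -1.39 and Tcf7l2 at -1.15, and with DESeq2 the 3 were called at -1.85, -1.98 and -1.61.

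Per kb of exon, Ccnd1 had the highest level of the 10 in both APC-KO tumors, at 41.0 ± 6.34 and 42.4 ± 2.87 scaled CPM per kb, with no overlap with Myc, the next at 23.7 ± 1.22 and 29.8 ± 2.86. In APC-WT tumors Ccnd1, at 14.8 ± 0.649 and 12.6 ± 0.877, came behind Myc (54.0 ± 2.36 and 31.5 ± 0.711), Ctnnb1 (46.8 ± 1.74 and 43.7 ± 3.97) and Tcf7l2 (16.3 ± 0.547 and 18.0 ± 0.537), and its libraries overlapped those of Tcf7l2 in tumor 1. Myc led in APC-WT tumor 1 and Ctnnb1 in APC-WT tumor 2, in each case without overlap. In both APC-KO tumors Ctnnb1 overlapped with Tcf7l2 and Tcf7l2 with Gsk3b, and Lrp6, Axin2, Lef1 and Apc formed an overlapping low group, between 8.72 ± 0.511 and 6.38 ± 0.383 scaled CPM per kb in APC-KO tumor 2. In APC-WT tumor 1 Apc and Lrp6, at 2.78 ± 0.133 and 2.66 ± 0.974, stood clear of Axin2 and Lef1, at 0.214 ± 0.0355 and 0.181 ± 0.0248.

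Pathway lists around the 10 genes were read in the same way. Counts of these lists and of the marker lists below stand beside the shares of all 20506 protein-coding genes. Of those genes 23.3% were above background in all 4 tumors, and 38.1% in none. A further 30.5% were above it in both APC-WT tumors but not in both APC-KO tumors. No ligand or secretion gene of 21 was above background in all 4 tumors; 6 were above in both APC-WT tumors, among them Wls, which carries Wnt proteins to the cell surface and stood at 2.51 and 2.94 times background in APC-KO tumors and 138 and 15.7 times in APC-WT tumors. Of 20 receptor and turnover genes 1 was above background in all 4 tumors, Fzd2, at 3.89 and 4.37 times in APC-KO tumors and 23.7 and 3.92 times in APC-WT tumors, and 7 were above in both APC-WT tumors. None of 14 secreted antagonists and none of 4 R-spondins was above background in all 4 tumors, and 2 antagonists and 1 R-spondin were in both APC-WT tumors. The antagonist receptor Kremen1 was 1 of them, at 2.05 and 2.21 times in APC-KO tumors against 80.2 and 14.0 times in APC-WT tumors. Wls and Kremen1 were picked here after their values were seen.

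Of 18 destruction-complex genes and regulators, 4 were above background in all 4 tumors and 15 in both APC-WT tumors; 5 were expressed, of which 0 rose, 2 fell and 3 did not pass, with a median log2 change of -0.45, against -0.03 over all expressed genes. Fbxw11, a β-TrCP that recognises marked β-catenin, fell by 1.31 ± 0.10, with 58.0 and 57.2 scaled CPM in APC-KO tumors against 209 and 187 in APC-WT tumors (adjusted p = 0.0029). Cul1, the cullin of the same ubiquitin ligase, fell by 0.87 ± 0.16 (adjusted p = 0.014). Both entered the test through the APC-WT tumors, where they are high, which favours a fall; in APC-KO tumors they stood at 2.86 to 3.70 times background, and neither was above background in both. The kinases Csnk1d (-0.31) and Csnk1a1 (0.23) did not pass.

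Of 22 nuclear effectors and repressors 8 were above background in all 4 tumors and 18 in both APC-WT tumors; 6 were expressed, of which 2 rose, 2 fell and 2 did not pass, with a median of 0.21. Ctnnbip1, an inhibitor that keeps β-catenin from TCF, rose by 1.22 ± 0.16 (69.3 and 75.8 scaled CPM in APC-KO tumors, against 31.9 and 40.9 in APC-WT tumors; adjusted p = 0.0061), and so did Tcf7l2. Hbp1, an HMG-box repressor, fell by 0.58 ± 0.10 (adjusted p = 0.011), as did Ctnnb1. Hbp1 stood at 3.18 and 3.05 times background in APC-KO tumors, within the range of the receptor genes, against 291 and 44.2 times in APC-WT tumors, and likewise entered through the APC-WT tumors. The co-repressor Ctbp1 (0.17) and the co-activator Pygo2 (0.24) did not pass.

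Of 24 Wnt target genes 8 were above background in all 4 tumors and 11 in none, the 11 including Lgr5, Notum, Nkd1 and Rnf43 besides Axin2 and Lef1. Of the 7 expressed, 2 rose, 1 fell and 4 did not pass, with a median of -0.39. Ccnd2, a second D cyclin, rose by 1.48 ± 0.16 (450.1 and 489 scaled CPM in APC-KO tumors, against 269 and 201 in APC-WT tumors; adjusted p = 0.0040), alongside Ccnd1. Vegfa, the angiogenic growth factor, fell by 1.61 ± 0.17 (714 and 591 against 2620 and 2630; adjusted p = 0.0039). Jun (-0.39) and the urokinase receptor gene Plaur (-0.47) did not pass. Lgr5, Notum, Nkd1 and Rnf43 were picked after their values were seen.

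Of 16 G1 cyclins and cell-cycle genes 8 were above background in all 4 tumors and all 16 in both APC-WT tumors; 6 were expressed, of which Ccnd1 and Ccnd2 rose and none fell, with a median of 0.49. The cyclin kinase Cdk4 (0.35, adjusted p = 0.059), the inhibitor Cdkn1a (0.64, 0.060) and the replication clamp Pcna (-0.06, 0.76) did not pass. Without the length offset 5 of the 6 rose, where 32.7% of all expressed genes rose. Among 8 cadherins and catenins, α-catenin (Ctnna1) was the only one above background in all 4 tumors, and it did not pass (-0.21). The lists were drawn up with earlier results of these data known, so their counts are descriptions.

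**Figure D4:**
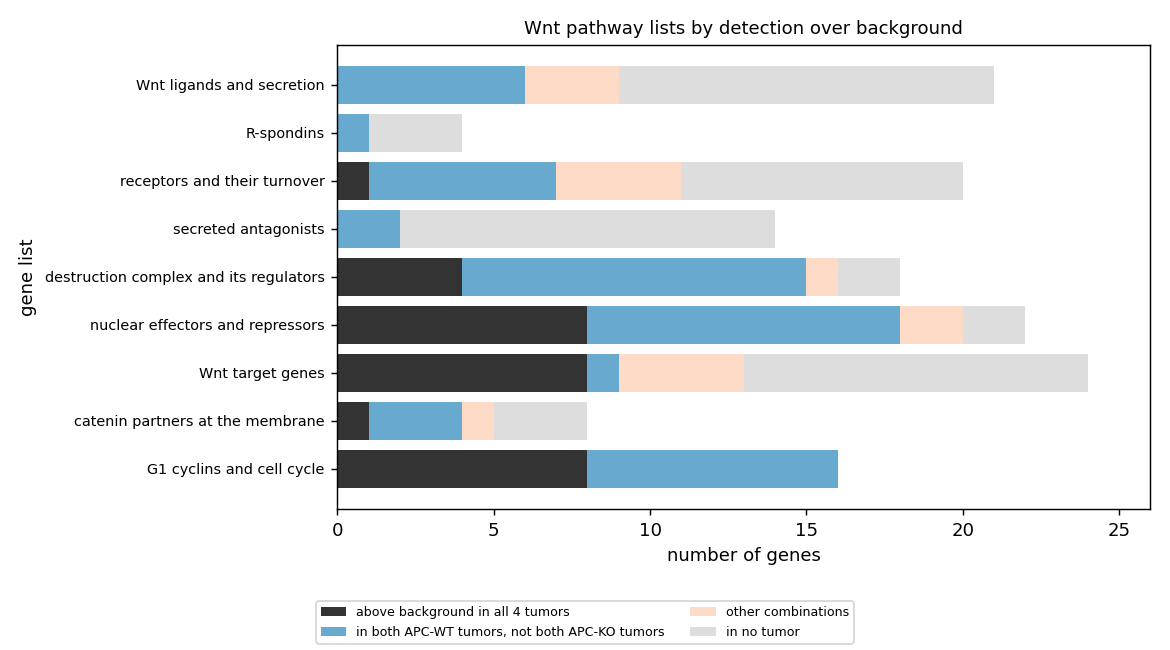
Number of genes of each pathway list that stood above background in all 4 tumors (black), in both APC-WT tumors but not in both APC-KO tumors (blue), in other combinations of tumors (pink) or in none (grey). Ligands, R-spondins and secreted antagonists have no gene above background in all 4 tumors, and 8 of 22 nuclear effectors and 8 of 24 targets do.

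Markers of other cells moved between the tumors too. The 13 colon epithelium or carcinoma markers summed to 438 and 518 scaled CPM in APC-KO tumors, against 235 and 794 in APC-WT tumors, with 7 above background in all 4 tumors; the tumor cells are the cells in which APC was altered. The 10 fibroblast markers summed to 447 and 633 in APC-KO tumors against 1657 and 947 in APC-WT tumors, with none above background in all 4. Col1a1 stood at 2.53 and 3.61 times background in APC-KO tumors, above it in neither, against 532 and 47.9 times in APC-WT tumors, and Col3a1 at 2.24 and 4.01 times, above it in tumor 2 only, against 1342 and 94.3 times. For the other lists the scaled CPM and the multiple of background often ran in opposite directions. The 12 T and NK cell markers summed to 256 and 367 scaled CPM in APC-KO tumors, against 31.7 and 64.3 in APC-WT tumors, which is 1.68 and 2.38 times background against 10.6 and 3.02 times; 1 of them (Lck) was above background in all 4 tumors. The 6 B cell markers summed to 154 and 163 against 23.2 and 38.1 (1.35 and 1.41 against 10.4 and 2.40 times background), and the 8 endothelial markers to 357 and 355 against 142 and 221 (1.75 and 1.73 against 35.8 and 7.79 times). The 8 dendritic cell markers summed to 364 and 362 against 359 and 315 (2.60 and 2.57 against 132 and 16.2 times), and the 8 neutrophil markers to 513 and 261 against 319.9 and 576 (10.02 and 5.04 against 320.1 and 80.6 times). Macrophage markers summed to 28730 and 29440 scaled CPM in APC-KO tumors, against 33660 and 28330 in APC-WT tumors; of these 12 genes 6 fell and none rose, where 24.4% of expressed genes fell and 24.8% rose. The part of these cells in the levels of Ctnnb1, Tcf7l2, Myc and Ccnd1 was not tested.

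The expressed genes whose log2 levels ran closest to those of Ctnnb1 over the 24 libraries were Copa, a coat protein of Golgi vesicles (Pearson r = 0.987), the actin-nucleation gene Actr3 (0.984) and Shisa5 (0.982). Those closest to Myc were Siglec1, the macrophage sialic-acid receptor CD169 (0.980), Actr2 (0.976) and the transferrin gene Trf (0.974). Siglec1 had 166 and 208 scaled CPM in APC-KO tumors, against 494 and 236 in APC-WT tumors, with the same high APC-WT tumor 1 as Myc. The 24 libraries fall into 4 tumors, so each coefficient mostly describes 4 levels.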

How the data were processed

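RNA of sorted tumor macrophages was sequenced after ultra-low-input library preparation (Illumina Nextera XT), per the labels' protocols. The authors deposited 1 table of raw counts per gene for 24 libraries; the submitters' processing notes name bcl2fastq 2.20.0, HISAT2 and StringTie and the build mm9, without roles, strand setting or annotation. Gene names, lengths and coordinates were taken from GENCODE M21 (GRCm38, not the build of the notes), which matched 55227 of 55487 IDs; none of the mm9 positions was used.

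The 6 libraries of a tumor were summed for tests of genotype, since the labels call them replicates of 1 sample. All pairs of libraries of a tumor differed beyond sampling noise, but not equally. In APC-WT tumor 1 library 1 differed from each other library by a chi-square per degree of freedom of 153 to 473. Libraries 2 and 4 differed by 12.1, and libraries 3, 5 and 6 by 25.5 to 37.9. Fits used edgeR 4.0.16 (quasi-likelihood, R 4.3.3) with Benjamini-Hochberg adjustment at 0.05, and DESeq2 1.42.0 as an alternative. The length offset was a loess fit (span 0.5) of log2 level on log2 longest-transcript length per tumor. Satellite-like loci shared at least 0.1 of their 15-base words with Gm10800 and were left out of the expressed genes. Fits were tested on simulated data. Promoter sequences are from RefSeq.

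The 10 genes, the lists and the tests were chosen with earlier results of these data known. Besides the 10, up to 4 genes per pathway list were named (those past the threshold by smallest p, then those above background in all 4 tumors by level per kb), up to 2 per marker list by level, and the 3 genes most correlated with each of the 2 genes highest per kb. Alternatives covered scaling, filters, tool, offset, background genes, tumors or libraries left out, and blocks. Counting intervals are not given because spread between libraries exceeds counting error.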

Additional observations from a re-analysis of the deposited data

Results flagged for a closer look

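Among 40 sets of 6 libraries (10 genes in 4 tumors), 2 held a library far from the other 5, and chance alone gives about 1 set in 20. Library 1 of APC-WT tumor 1 had 34.1 scaled CPM of Axin1, against 6.93 to 12.3 in the other 5, a gap of 0.804 of the range. Library 2 of APC-KO tumor 1 had 135 scaled CPM of Ccnd1, against 198 to 223 in the other 5, a gap of 0.707 of the range; LTO1, which overlaps it on the opposite strand, had 143 in that library, against 73.0 to 87.9 in the others.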

How the results depend on the processing

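The fit over all genes called 0 genes; scaled to the expressed genes it called 31504 (30157 higher and 1347 lower), with DESeq2 11470, with tumor number as a block 966, and without any 1 tumor between 34 and 27409, the high counts being those without an APC-WT tumor. Scaled to the expressed genes, Ccnd1 (1.62), Lrp6 (1.78), Apc (1.43), Gsk3b (1.23), Axin1 (1.29) and Tcf7l2 (0.0020) reversed. The expressed-gene fit called 1938; with 5 times the background as limit it called 3783, with 20 times 896, with no limit 6131, with tumor number as a block 1126, and without any 1 tumor 806 to 1902. More or fewer genes enter under these limits, and Tcf7l2 turned to -0.66 with no limit and to -2.06 with the 99th percentile of the background subtracted, a setting added after seeing the data. At 20 times, Ccnd1 and Tcf7l2 did not enter and Ctnnb1 was at -0.28 (adjusted p = 0.11). The correlation of deviations by tumor number was -0.41, a single value that does not settle whether the numbers pair the tumors. With the numbers crossed, a block added after seeing the data, 1024 of all genes and 2349 of the expressed genes were called.

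Against Vmn genes alone 3 of the 10 genes were above background in all 4 tumors; against the 95th percentile, Olfr genes alone, near-silent coding genes or the longest transcript it was 6. Within APC-KO tumors, changes around 0 took either sign when a library number was left out: -0.058 to 0.095 for Ccnd1, -0.023 to 0.139 for Axin2, -0.157 to 0.022 for Lef1, -0.173 to 0.028 for Tcf7l2 and -0.176 to 0.019 for Axin1. Within APC-WT tumors TMM over all genes and DESeq2 turned Tcf7l2 to -1.15 and -1.61 and Axin1 to -0.34 and -0.83. Deviations of same-numbered libraries had correlations from -0.47 to 0.72. They were not set beside those of other library pairs, so whether library numbers pair libraries is not settled. As a block the library numbers gave 1029 calls between APC-KO tumors and 37513 between APC-WT tumors. Causes of these changes were not tested. The 10 genes had 134 to 1363 counts per APC-KO library. The lowest counts were those of Axin2 and Lef1 in the APC-WT tumors. They had 55 to 89 and 86 to 111 per library in tumor 1, and 72 to 131 and 77 to 240 in tumor 2.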
